A study of Mus musculus with 72 samples.

Results

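The salt-inducible kinases, the CREB-regulated coactivators and the CREB family act on the same group of promoters. Of 10 genes chosen by name (Sik1, Sik2, Sik3, Crtc1, Crtc2, Crtc3, Creb1, Crem, Crebbp and Ep300), 9 had a probe set annotated to that gene symbol alone. These 9 genes, with 1 probe set each, are described among 18820 genes measured in this way in the mouse hippocampus. The only probe set annotated to Sik2 also carried the symbol Ppp2r1b, so no Sik2 value is given.

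CREB, encoded by Creb1, binds the cAMP response element (CRE) in the promoters of genes that neuronal activity switches on. It is driven by phosphorylation and by the coactivators Crtc1 to Crtc3, which enter the nucleus when they are dephosphorylated, and it recruits the histone acetyltransferases CBP (Crebbp) and p300 (Ep300). Salt-inducible kinases phosphorylate the Crtc proteins and hold them in the cytoplasm. Sik1 is itself transcribed from a CREB-driven promoter and so can feed back on the pathway. In the hippocampus CREB-dependent transcription is known for its part in long-term memory. Arrays measure RNA, so phosphorylation and the place of a protein in the cell were not measured.

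The mice were C57BL/6J males of 2 months, 9 in each of 8 groups, with 1 array for the pooled hippocampi of each mouse. All were handled beforehand and none carried an engineered allele. Trained mice received a 2 s foot shock of 1.5 mA in a new chamber (contextual fear conditioning, FC) and were dissected after a wait of 30 min in the FC30 group, of 4 h in FC4, of 12 h in FC12 and of 24 h in FC24. RT30 mice were trained, returned to the chamber for a 5 min test at 24 h, and dissected 30 min after it. Untrained CC30, CC4 and CC12 mice were only handled and were taken at the time of day of FC30, FC4 and FC12. FC24 and RT30 were compared with CC30, the untrained group closest in time of day, and in RT30 the mice met the chamber without a new shock. Trained mice met both a new place and a shock, and the RNA came from the whole hippocampus, so the part of either event, or of any cell type, cannot be told apart here.

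Levels are log2 signals after the main direction of variation among all arrays (the first principal component, 17.4% of the variance) was subtracted. A difference of 1 on this scale is a doubling. A gene was called where its Benjamini-Hochberg adjusted p over 35556 probe sets was under 0.1 in limma. All 5 neuron markers checked lay between the 91.6th and 99.8th percentiles of probe sets in CC30 mice. Arrays of 6 mice stood apart from their group on the first or second component (CC30 replicate 3, FC30 replicate 4, CC12 replicate 2, FC12 replicate 2, FC24 replicate 4 and CC4 replicate 8), and key values are also given without them.

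Promoter sequence shows which of these genes carry the element that CREB binds. The windows are the 250 bases before a RefSeq transcription start (mouse assembly GRCm38.p6), searched on both strands for the full CRE, TGACGTCA, and for its core, TGACG. A full CRE reads the same on both strands and so holds the core 2 times. Of 32851 such windows of all genes, 1.55% held the full element and 17.8% the core. A window was at hand for 7 of the 10 genes. None of the 7 held the full element, and 1, Sik3, held the core, at 3 places. Sik1, Crtc2 and Crem had no entry. The Sik3 window, the window of a gene whose RNA hardly varied, is printed with those of Nr4a1 and Dusp1, the genes most like Sik1 over the groups, and of Btg2, which like Dusp1 follows Sik1 and holds a full element. All are written 5′ to 3′ with the core and the full CRE, on either strand, in capitals. They lie at chr9:46012570-46012819 on the plus strand for Sik3, chr15:101266596-101266845 on the plus strand for Nr4a1, chr17:26508473-26508722 on the minus strand for Dusp1 and chr1:134079156-134079405 on the minus strand for Btg2.

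Sik3: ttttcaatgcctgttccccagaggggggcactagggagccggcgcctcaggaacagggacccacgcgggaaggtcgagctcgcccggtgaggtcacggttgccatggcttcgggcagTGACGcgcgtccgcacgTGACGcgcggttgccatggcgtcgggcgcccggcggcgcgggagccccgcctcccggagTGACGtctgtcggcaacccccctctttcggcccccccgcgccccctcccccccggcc

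Nr4a1: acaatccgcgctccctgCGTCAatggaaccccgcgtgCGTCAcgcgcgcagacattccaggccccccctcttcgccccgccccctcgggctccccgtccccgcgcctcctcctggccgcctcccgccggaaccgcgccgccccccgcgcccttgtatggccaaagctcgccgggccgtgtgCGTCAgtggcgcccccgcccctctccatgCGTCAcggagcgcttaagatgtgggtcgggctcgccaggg

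Dusp1: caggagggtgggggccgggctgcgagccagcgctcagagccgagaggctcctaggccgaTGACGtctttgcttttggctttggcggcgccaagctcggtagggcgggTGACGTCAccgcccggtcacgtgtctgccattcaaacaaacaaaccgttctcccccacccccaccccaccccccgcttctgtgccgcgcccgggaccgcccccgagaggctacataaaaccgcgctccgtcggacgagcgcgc

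Btg2: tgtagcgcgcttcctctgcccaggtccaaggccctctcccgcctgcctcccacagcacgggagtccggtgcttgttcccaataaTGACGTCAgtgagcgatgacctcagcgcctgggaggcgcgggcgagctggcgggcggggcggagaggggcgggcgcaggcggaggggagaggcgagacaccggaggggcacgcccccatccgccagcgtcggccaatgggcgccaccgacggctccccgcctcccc

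Nr4a1 held the core at 4 places and no full element. Dusp1 held 1 full element and a further core, and Btg2 held 1 full element. Matches describe these letters in these windows and say nothing of which were bound.

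Sik1 RNA was higher 30 min after training and 30 min after retrieval, and lay at the control level at 24 h. Untrained CC30 mice ran from 6.63 to 6.96, with a median of 6.82. FC30 mice ran from 6.96 to 7.56, with a median of 7.37. All 9 FC30 mice lay above the CC30 mean and 8 of them above every CC30 mouse, so the groups met only at their edges. The lowest FC30 mouse was replicate 4, whose array stood apart on the first component, and the highest CC30 mouse was replicate 3, whose array also did. The mean rose by 0.52 on the log2 scale, 1.44-fold (SE 0.06, 95% confidence interval 0.39 to 0.66, limma adjusted p = 3.94e-04). Without the arrays that stood apart the rise was 0.59 (limma adjusted p = 1.19e-05). Fewer cells that express a gene and less of its RNA in each cell cannot be told apart in whole tissue, and the same holds for more.

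RT30 mice ran from 7.08 to 7.56, with a median of 7.26, and each of the 9 lay above every CC30 mouse. Over all probe sets, 0.0562% had an RT30 group wholly above CC30. The Sik1 mean was 0.49 higher than in CC30, 1.41-fold (SE 0.06, 95% interval 0.37 to 0.61, limma adjusted p = 1.99e-04). Among the 18820 genes Sik1 had the 11th largest rise at FC30 and the 10th largest at RT30. RT30 and FC30 share the CC30 controls, so these are not 2 independent results.

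FC24 mice had been trained but not tested, and their Sik1 level ran from 6.72 to 6.96 with a median of 6.75. Their mean differed from that of CC30 by -0.0004 (95% interval -0.10 to 0.10, limma adjusted p = 1). FC30 mice lay 0.52 above FC24 mice (limma adjusted p = 2.81e-04) and RT30 mice 0.49 above them (limma adjusted p = 9.82e-05). All 9 RT30 mice lay above every FC24 mouse, as in 0.0619% of all probe sets. All 9 FC30 mice did so too (0.0506% of probe sets), but the lowest, replicate 4 at 6.959, cleared the highest FC24 mouse, at 6.958, by under 0.001, and in the deposited values without a component subtracted it lay below it (6.93 against 6.96). The RT30 level differed from the FC30 level by -0.03, with an interval of -0.18 to 0.11 (limma adjusted p = 1). A difference within that interval, in either direction, is not excluded.

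**Figure D1:**
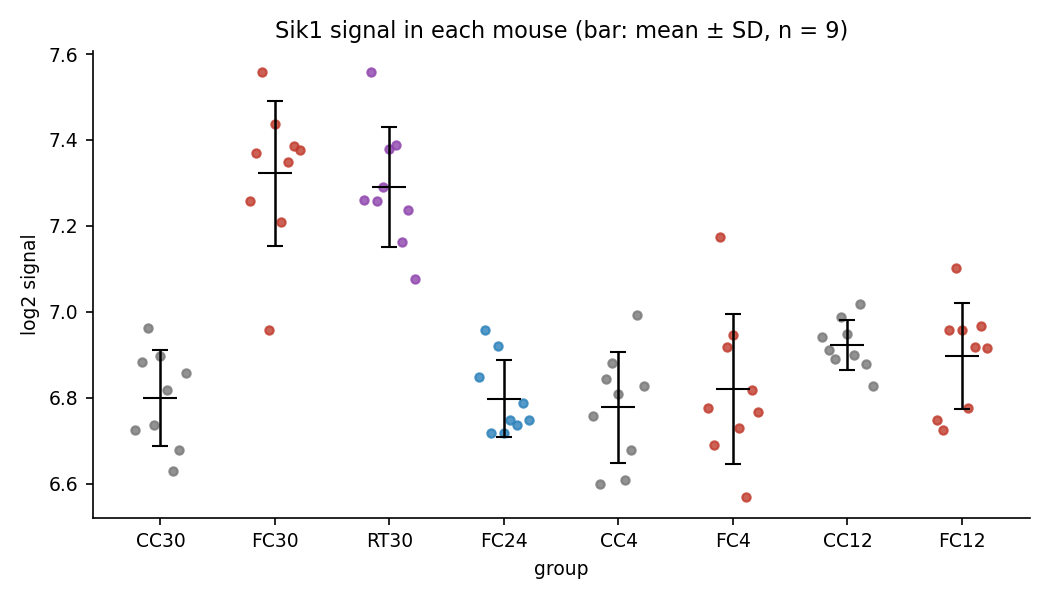
Sik1 log2 signal (vertical axis) in each of 72 mice by group, with 1 point for each mouse (untrained grey, trained red, FC24 blue, RT30 purple) and black bars for the mean and SD of 9 mice. FC30 and RT30 mice reach 7.56, and 8 of 9 FC30 mice and all RT30 mice lie above the highest CC30 mouse at 6.96.

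At the later times Sik1 did not pass the test. FC4 mice ran from 6.57 to 7.17 with a median of 6.78, against 6.60 to 6.99 with a median of 6.81 in CC4, and the difference was 0.04 (95% interval -0.10 to 0.19, limma adjusted p = 0.959). FC12 mice ran from 6.73 to 7.10 and CC12 mice from 6.83 to 7.02, with medians of 6.92 and 6.91, and the difference was -0.03 (limma adjusted p = 1). The groups of each pair overlapped, and the trained mice spread more widely in both, with 3 of 9 FC12 mice below every CC12 mouse.

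The change at 30 min was larger than those at 4 h and 12 h when the changes themselves were compared. The FC30 change exceeded the FC4 change by 0.48 (SE 0.10, limma interaction adjusted p = 0.0502) and the FC12 change by 0.55 (SE 0.08, limma interaction adjusted p = 5.42e-04). In order of the 8 group means Sik1 ran FC30, RT30, CC12, FC12, FC4, CC30, FC24 and CC4. Only the step from RT30 to CC12 passed the test between neighbours in that order (limma adjusted p = 0.00114), and 13 of the 28 pairs of groups were called. Of these, 12 set FC30 or RT30 against another group. Besides the pairs named above, FC30 exceeded CC4 (where 0.582% of all probe sets were called), FC4 (0.596%), CC12 (2.19%) and FC12 (1.37%), by 0.40 to 0.55. RT30 exceeded CC4 (1.1%), FC4 (0.571%), CC12 (1.27%) and FC12 (0.982%), by 0.37 to 0.51. The other set CC12 above FC24 by 0.12 (limma adjusted p = 0.0897), where 4.13% were called.

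Sik1 also lay somewhat higher in untrained mice late in the day without passing the test. All 9 CC12 mice lay above the mean of either other untrained group, by 0.12 on average against CC30 (limma adjusted p = 0.167) and by 0.14 against CC4 (limma adjusted p = 0.121). The latter passed in 5 of 13 other settings of the analysis.

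None of the other 8 genes was called after training or after retrieval. At FC30 1 of 9 genes, Sik1, was called, where 0.256% of all probe sets were. At RT30 it was again 1 of 9, where 0.278% were. Against FC24 it was 1 of 9 for FC30 and for RT30, where 0.152% were in each. Before adjustment 2 of 9 genes, Sik1 and Ep300, had a limma p under 0.05 in each of these. No share over all probe sets is given for that count. Ep300 lay 0.06 above FC24 at FC30 (95% interval 0.006 to 0.11) and 0.06 above it at RT30 (0.001 to 0.11). In the comparisons of FC4, FC12 and FC24 with their controls, and of RT30 with FC30, 0 of 9 were called by limma and 0% of all probe sets. In each of those 4 comparisons 0 of 9 genes had an unadjusted p under 0.05, against 4.31% of probe sets for FC24, 5.35% for FC4, 4.06% for FC12 and 3.9% for RT30 against FC30. Local false discovery rates of t-statistics, the kind the study used, also called 0 of the 9 genes in these 4 comparisons. The interaction tests called 1 of 9 each, Sik1, where 0.045% of all probe sets were called against the FC4 change and 0.0872% against the FC12 change.

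Sik3, the kinase of the same family with a broad role in metabolism and sleep, had the narrowest span of group means of the 9 genes. CC30 mice ran from 9.81 to 9.98 (median 9.88) and FC30 mice from 9.81 to 9.97 (median 9.87), which covers nearly the same range. The difference was -0.01 at FC30 (95% interval -0.07 to 0.05, limma adjusted p = 0.957) and -0.01 at RT30 (limma adjusted p = 0.983). Its 8 group means spanned 0.03, less than the median SD within groups of 0.05, whereas the Sik1 means spanned 0.55 with a median SD within groups of 0.13. Members of 1 kinase family thus had unlike ranges over the same mice.

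The 3 coactivators that the kinases phosphorylate stayed close to their control levels. Crtc1, the most neuronal of the 3, ran from 10.64 to 10.97 (median 10.82) in CC30 and from 10.73 to 10.85 (median 10.77) in FC30. Its difference was -0.03 at FC30 (95% interval -0.11 to 0.05) and -0.05 at RT30 (-0.15 to 0.05). FC30 values of Crtc1 lay wholly inside the CC30 range.

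Crtc2, best known as the coactivator through which hormones set glucose production in liver, ran from 8.37 to 8.55 (median 8.45) in CC30 and from 8.40 to 8.65 (median 8.47) in FC30. The difference was 0.02 at FC30 (-0.06 to 0.10) and -0.01 at RT30 (-0.09 to 0.06), and the groups overlapped in most of their range. Crtc3 ran from 7.72 to 7.90 (median 7.85) in CC30 and from 7.70 to 7.91 (median 7.84) in FC30, with differences of -0.01 at FC30 (-0.08 to 0.06) and -0.005 at RT30 (-0.08 to 0.07). For Sik3, Crtc1, Crtc2 and Crtc3, 0 of 28 pairs of groups were called by limma and 0 of 28 had an unadjusted p under 0.05.

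Creb1 and Crem, the transcription factors, were not called after training or retrieval either. Creb1 ran from 8.86 to 9.00 (median 8.94) in CC30 and from 8.85 to 9.08 (median 8.96) in FC30, a difference of 0.01 (95% interval -0.05 to 0.08). Crem, whose short product ICER represses CREB target genes, ran from 6.26 to 6.58 (median 6.46) in CC30 and from 6.34 to 6.59 (median 6.42) in FC30, a difference of -0.003 (-0.10 to 0.09). ICER was not measured apart from other Crem transcripts.

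Crebbp and Ep300, the acetyltransferases, gave the narrowest intervals of the 9 genes at FC30. Crebbp ran from 10.40 to 10.49 (median 10.47) in CC30 and from 10.39 to 10.51 (median 10.43) in FC30, a difference of -0.02 (95% interval -0.06 to 0.03). Ep300 ran from 9.65 to 9.76 (median 9.70) in CC30 and from 9.64 to 9.80 (median 9.72) in FC30, a difference of 0.03 (-0.03 to 0.08). The ranges of both genes overlapped widely. Over the 8 genes besides Sik1, the 95% intervals reached from -0.11 to 0.10 at FC30 and from -0.15 to 0.08 at RT30, whereas the Sik1 intervals began at 0.39 and 0.37. At the other times the intervals of these 8 genes reached from -0.16 to 0.12 for FC4 against CC4, from -0.07 to 0.12 for FC12 against CC12 and from -0.13 to 0.12 for FC24 against CC30. With FC24 as the reference they reached from -0.12 to 0.13 for FC30 and from -0.11 to 0.14 for RT30. Of these only the Ep300 intervals held no negative value. A shift of more than these bounds in any of the 8 mRNAs lies outside its interval. Smaller shifts within a gene's own interval are not excluded, and the intervals differed in width between genes.

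**Figure D2:**
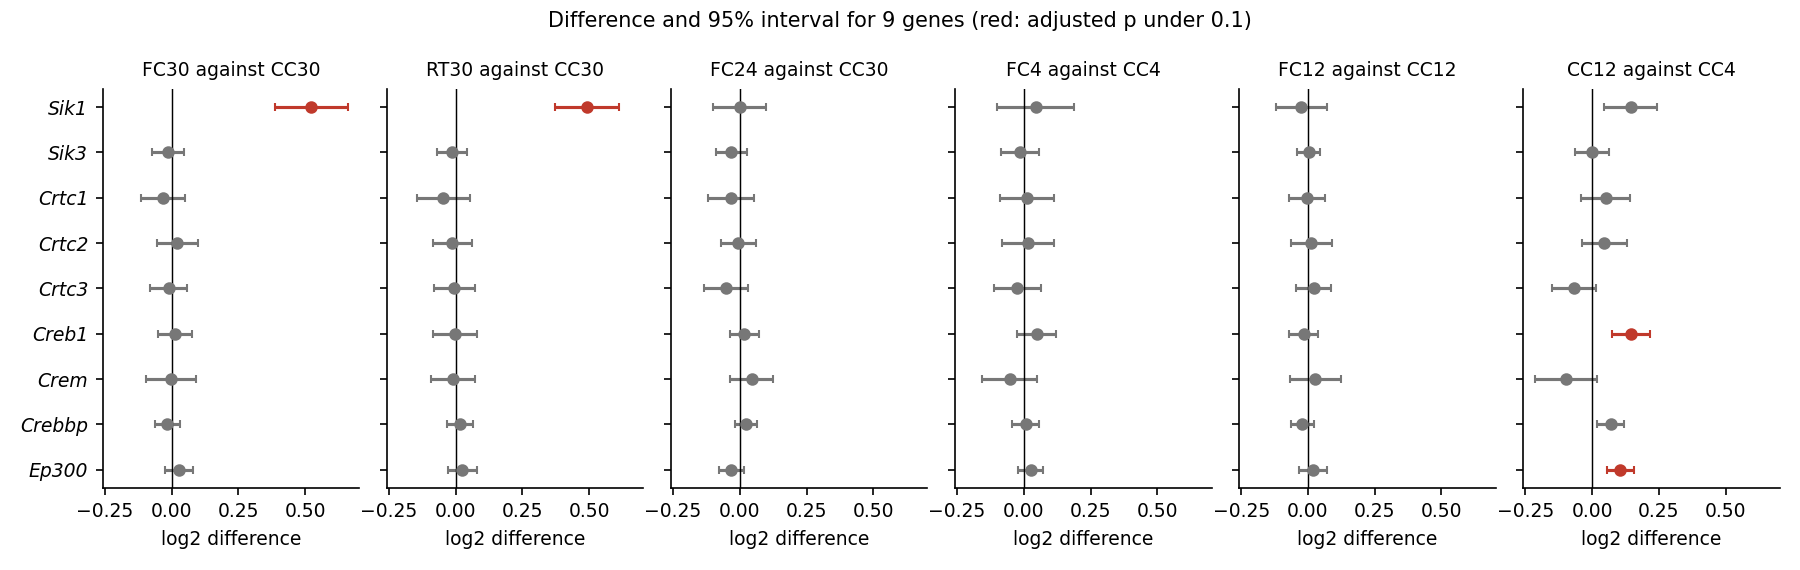
Difference in mean log2 signal (horizontal axis) with its 95% confidence interval for 9 genes in 6 comparisons of 9 mice with 9 mice, with genes called in red. Sik1 stands at 0.52 and 0.49 in the first and second panels, and Creb1 and Ep300 are called in the last panel, CC12 against CC4.

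Genes other than Sik1 were called only between groups dissected at different hours. Some of these pairs also differed in training or in time since training. In untrained mice taken at the CC12 time, which fell in the dark phase, Creb1 and Ep300 were higher than at the CC4 time in the light phase. That was 2 of 9 genes, where 5.01% of all probe sets were called and 2.54% were called higher. In CC12 against CC30 it was 0 of 9, where 3.5% were called, and in CC4 against CC30 0 of 9, where 0.0731% were. In CC12 against CC30, 4 of the 9 genes had an unadjusted p under 0.05, against 13.4% of all probe sets, and in CC4 against CC30 1 of 9, against 6.21%. Local false discovery rates, estimated anew here, also called 0 of 9 in both, and called 463 probe sets in CC12 against CC30. They may differ from the rates of the study, which reports that CBP and p300 changed with time of day. The methods' t-test with Benjamini-Hochberg adjustment called 2 of 9 in CC12 against CC30, Crebbp and Ep300.

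Ep300 ran from 9.59 to 9.69 (median 9.67) in CC4, from 9.65 to 9.76 (median 9.70) in CC30 and from 9.69 to 9.81 (median 9.79) in CC12. Of the CC12 mice 9 lay above the CC4 mean and 8 above every CC4 mouse. The mean was 0.11 higher than in CC4 (SE 0.02, limma adjusted p = 0.0207) and 0.07 higher than in CC30 without passing the test (limma adjusted p = 0.164). Trained mice of the same hour were alike in level, with FC12 running from 9.72 to 9.86 (median 9.79).

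Over all pairs of groups Ep300 was called in 7 of 28, and each of them set CC12 or FC12 above a group taken in the light phase. FC12 exceeded CC4 by 0.12 (limma adjusted p = 0.00633), FC24 by 0.12 (limma adjusted p = 0.0102), FC4 by 0.10 (limma adjusted p = 0.028) and CC30 by 0.09 (limma adjusted p = 0.0666). CC12 exceeded FC24 by 0.10 (limma adjusted p = 0.0267) and FC4 by 0.08 (limma adjusted p = 0.0767). In these pairs the share of all probe sets called was 4.78% for CC4 against FC12, 3.19% for FC12 against FC24, 4.22% for FC4 against FC12, 2.63% for CC30 against FC12, 4.13% for CC12 against FC24 and 4.73% for FC4 against CC12. No neighbouring groups in the order of Ep300 means, FC12, CC12, FC30, RT30, CC30, FC4, FC24 and CC4, differed by the test.

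Creb1 ran from 8.75 to 8.97 (median 8.88) in CC4 and from 8.91 to 9.11 (median 9.01) in CC12. Of the CC12 mice 9 lay above the CC4 mean and 7 above every CC4 mouse, so the groups overlapped in part. The mean was 0.15 higher (SE 0.03, limma adjusted p = 0.0239), and FC12 mice lay 0.13 above CC4 mice (limma adjusted p = 0.021). Against CC30, whose Creb1 level lay between, the CC12 difference was 0.08 and did not pass the test (limma adjusted p = 0.227).

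Crebbp, the close relative of Ep300, had a like pattern at the edge of the threshold. It ran from 10.39 to 10.52 (median 10.44) in CC4, from 10.40 to 10.49 (median 10.47) in CC30 and from 10.46 to 10.56 (median 10.52) in CC12. Differences of 0.07 from CC4 (limma adjusted p = 0.145) and 0.06 from CC30 (limma adjusted p = 0.18) did not pass. Of the CC12 mice, 8 of 9 lay above every CC30 mouse. Such counts between untrained groups, also those of Ep300 and Creb1 above, were not set against all probe sets. Crem ran the other way without passing in untrained mice, by -0.10 against CC4 (limma adjusted p = 0.47). It was called in 1 of the 28 pairs, FC12 against FC24, in which FC12 mice lay lower by 0.11 (limma adjusted p = 0.0398). These groups differ in time since training as well as in hour, which cannot be told apart.

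**Figure D3:**
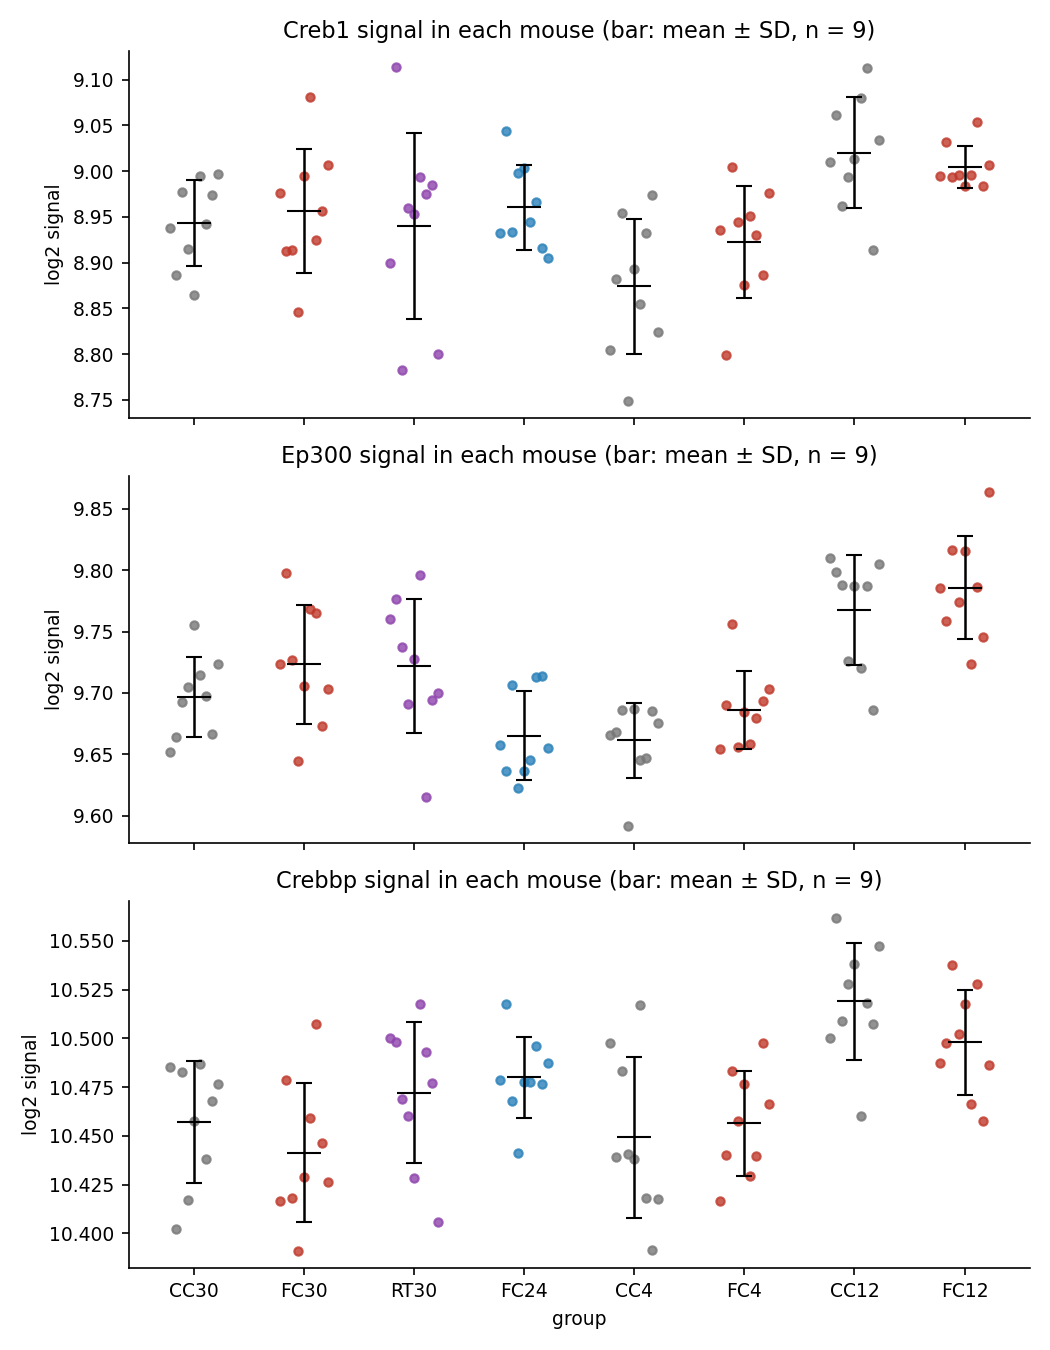
Log2 signals (vertical axes) of Creb1, Ep300 and Crebbp in each of 72 mice by group, with 1 point for each mouse (untrained grey, trained red, FC24 blue, RT30 purple) and black bars for the mean and SD of 9 mice. For Ep300, 8 of 9 CC12 mice lie above every CC4 mouse and the FC12 mice reach 9.86.

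A few markers of other cells were called between the groups as well, each the only one called in its list. At CC12 against CC4, where 5.01% of all probe sets were called, 1 of 3 oligodendrocyte and 1 of 5 microglia markers were lower. No marker of neurons, astrocytes, pyramidal cells or granule cells was called there. The mean over the oligodendrocyte markers ran from 8.97 to 9.26 in CC4 mice and from 8.41 to 8.94 in CC12 mice, without overlap. How many probe sets were as separate between these groups was not counted. The mean over the microglia markers ran from 7.50 to 7.67 in CC4 and from 7.44 to 7.65 in CC12. At CC12 against CC30, where 3.5% were called, 1 of 4 granule cell, 1 of 3 oligodendrocyte, 1 of 5 microglia and 1 of 5 endothelial markers were lower. At CC4 against CC30, where 0.0731% were called, 1 of 5 endothelial markers was lower. An endothelial marker, 1 of 5, was also lower at RT30 against CC30 (0.278% of probe sets called) and against FC24 (0.152%). The mean over the 5 ran from 7.58 to 7.76 in RT30, 7.61 to 7.79 in CC30 and 7.57 to 7.83 in FC24. At FC30 no marker was called, but the median difference over 5 choroid plexus markers was 0.41. Their mean ran from 5.76 to 7.82 (median 6.21) in CC30 and from 6.11 to 8.12 (median 6.85) in FC30. Differences of this size were not particular to FC30. The median over the 5 was 0.55 in CC12 against CC30, 0.39 in CC4 against CC30 and 0.16 in CC12 against CC4. It was -0.48 in FC12 against CC12 and -0.47 in RT30 against FC30, and no choroid plexus marker was called in any of these. The part of cell composition in these differences was not tested.

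The known targets of CREB were then set beside its regulators. Their list was chosen with earlier results of these data known. It holds many genes that the study reports as induced in these arrays, so the counts are no independent test. Of 34 listed CREB target genes, all measured, 15 rose and 0 fell at FC30, where 0.186% of all probe sets were called higher, and the median difference was 0.14 against -0.002 over all probe sets. The largest rises were those of Egr2, a zinc finger transcription factor, by 1.27 (SE 0.13, limma adjusted p = 7.34e-05), Arc, which acts at synapses, by 0.85 (limma adjusted p = 8.97e-05), Fos, a subunit of AP-1, by 0.82 (limma adjusted p = 1.11e-04) and Nr4a1, an orphan nuclear receptor, by 0.76 (limma adjusted p = 3.93e-05). At RT30 15 rose and 0 fell, where 0.186% were called higher, with a median of 0.13 against -0.002. At FC4, FC12 and FC24 0 of 34 were called, and the medians were 0.04, 0.002 and 0.003. In these comparisons 4, 2 and 0 of the 34 had an unadjusted p under 0.05. Between untrained groups, 8 of the 34 were higher and 2 lower in CC12 against CC4, where 5.01% of all probe sets were called. For CC12 against CC30, 4 were higher and 1 lower, where 3.5% were called.

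Of the CREB targets that rose at FC30, 12 had a promoter window, and 10 held the core and 2 the full element. A gene with several windows, such as Egr2 with 5 or Sgk1 with 6, counted where any of them held the element. The shares given above for all genes are of single windows. Of those not called, 12 had a window, and again 10 held the core while 4 held the full element. The share with the core was the same among listed targets that were called and those that were not.

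Genes of the surrounding pathway were counted next, with FC30 and RT30 set against CC30, where 0.256% and 0.278% of all probe sets were called. In limma 0 of 83 were called in either, which is near that background. It was 0 of 17 measured SIK activators and regulators (LKB1 complex, protein kinase A and phosphatases), 0 of 13 SIK substrates and partners (class IIa histone deacetylases, Mef2 factors and 14-3-3 proteins) and 0 of 11 other AMPK-related kinases. It was also 0 of 9 CREB kinases, 0 of 10 adenylyl cyclases and phosphodiesterases, 0 of 11 other CREB and ATF factors and 0 of 12 other acetyltransferases and partners of CBP and p300. A probe set of their own was lacking for 13 listed genes. Of the 83 genes, 4 had an unadjusted p under 0.05 at FC30, against 6.76% of all probe sets, and 3 at RT30, against 6.91%.

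By the hour in untrained mice, 8 of the 83 were called in CC12 against CC4 (5.01% of all probe sets) and 5 in CC12 against CC30 (3.5%). Hdac9, a class IIa histone deacetylase, was lower at CC12 than at CC4 by 0.22 (difference -0.22, limma adjusted p = 9.74e-04), and Hdac4, of the same class, was higher by 0.12 (limma adjusted p = 0.055). Creb5, a factor that binds the CRE, differed by -0.28 (limma adjusted p = 0.00619) and Creb3l2, a membrane-bound factor of the secretory pathway, by 0.19 (limma adjusted p = 0.0264). Adcy8, a calcium-stimulated adenylyl cyclase, differed by -0.28 (limma adjusted p = 0.0215).

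Between CC12 and CC4, Cited4, a partner of CBP and p300, differed by -0.28 (limma adjusted p = 0.011). Kat6b, another acetyltransferase, differed by -0.18 (limma adjusted p = 0.00391) and the nuclear receptor coactivator Ncoa3 by 0.14 (limma adjusted p = 0.0481). Between CC12 and CC30, Creb5 differed by -0.31 (limma adjusted p = 0.00102), Cited1 by 0.17 (limma adjusted p = 0.0889), Kat6b by -0.11 (limma adjusted p = 0.0281) and Ncoa3 by 0.11 (limma adjusted p = 0.0588). Prkar2a, a regulatory subunit of protein kinase A, differed by 0.12 (limma adjusted p = 0.0401). Within a family the signs were mixed, as between Hdac4 and Hdac9 or Creb5 and Creb3l2.

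The genes whose 8 group means were most like those of Sik1 were ranked among 366 genes whose means spanned at least 0.3. In order of Pearson r over the 8 means they were Nr4a1 and Dusp1, a dual-specificity phosphatase (both 0.996), Fos (0.993), Egr2 (0.986), Mir212, the locus of a microRNA (0.983), Junb, a subunit of AP-1 (0.981), Egr4 (0.963) and Btg2, an antiproliferative factor (0.959). The r describes 8 points, of which FC30 and RT30 stand far from the rest, and no p is given. FC30 means lay above CC30 by 0.75 for Dusp1 and 0.46 for Btg2, on either side of the Sik1 value of 0.52. Among mice within groups, r with Sik1 was between 0.31 for Mir212 and 0.57 for Dusp1. A promoter window was at hand for 7 of the 8. All 7 held the core in at least 1 window, and 2, Dusp1 and Btg2, held the full element.

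**Figure D4:**
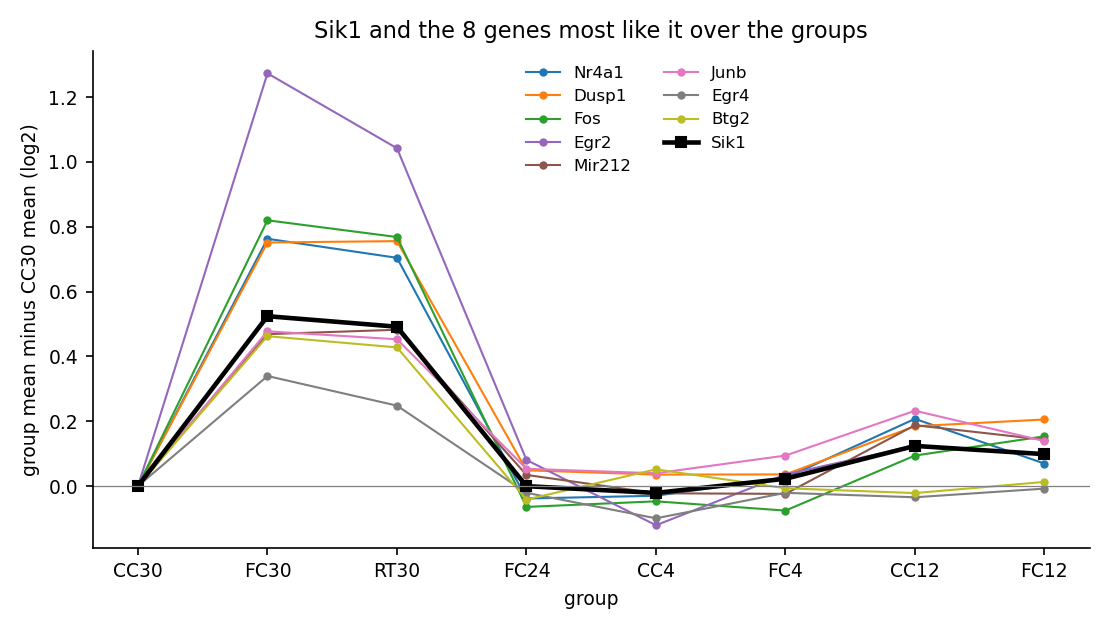
Group mean minus the CC30 mean (log2, vertical axis) of Sik1, in black, and of the 8 genes most like it, in colours, for 8 groups of 9 mice, with lines joining the values of a gene. All 9 genes peak at FC30 and RT30, Egr2 highest at 1.27, and Sik1 lies in the middle at 0.52 and 0.49.

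Levels were then compared among mice within groups, as deviations of 72 mice from their group means. This takes out the mean rise of Sik1 at FC30 and RT30, but not how the rise varied among mice of a group. A correlation was called at an adjusted p under 0.05 over the 8 genes. Of the 8 correlations with Sik1, that of Crtc2 was highest. Pearson r was 0.44 (permutation p = 6.4e-04, adjusted p = 0.00512) and Spearman rho 0.42 (permutation p = 8.4e-04, adjusted p = 0.00672). Without the 2 mice farthest from the Sik1 median r was 0.38, and r was above 0 in 8 of 8 groups, from 0.04 to 0.71. Of 18819 other genes, 0.558% had a higher r with Sik1, and the median r over all of them was 0.03.

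For Sik3 r was 0.32 and for Creb1 0.31 (permutation adjusted p = 0.0376 for each), for Ep300 0.30 (permutation adjusted p = 0.0376), and for Crtc1 and Crtc3 0.27 (permutation adjusted p = 0.0433 for each). Rank correlations passed for Sik3 (rho 0.39, permutation adjusted p = 0.00888) and Crtc1 (rho 0.33, permutation adjusted p = 0.0192) and did not for Creb1, Ep300 and Crtc3 (permutation adjusted p = 0.257, 0.201 and 0.0697). Without the 2 farthest mice r was 0.39 for Sik3, 0.26 for Crtc1 and 0.27 for Crtc3, and 0.21 for Creb1 and 0.17 for Ep300. Within single groups r ran from -0.27 (FC12) to 0.72 (RT30) for Creb1 and from -0.51 (FC24) to 0.66 (RT30) for Ep300. It ran from -0.09 to 0.66 for Sik3, -0.23 to 0.75 for Crtc1 and -0.29 to 0.72 for Crtc3. Without the arrays that stood apart none of these 5 passed (permutation adjusted p from 0.107 to 0.171), and Crtc2 did (r 0.41, permutation adjusted p = 0.0173). Crebbp, with r 0.17, and Crem, with r 0.08, did not pass (permutation adjusted p = 0.207 and 0.495). All values of a mouse come from 1 array, and the part of array quality or dissection in these correlations was not tested.

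**Figure D5:**
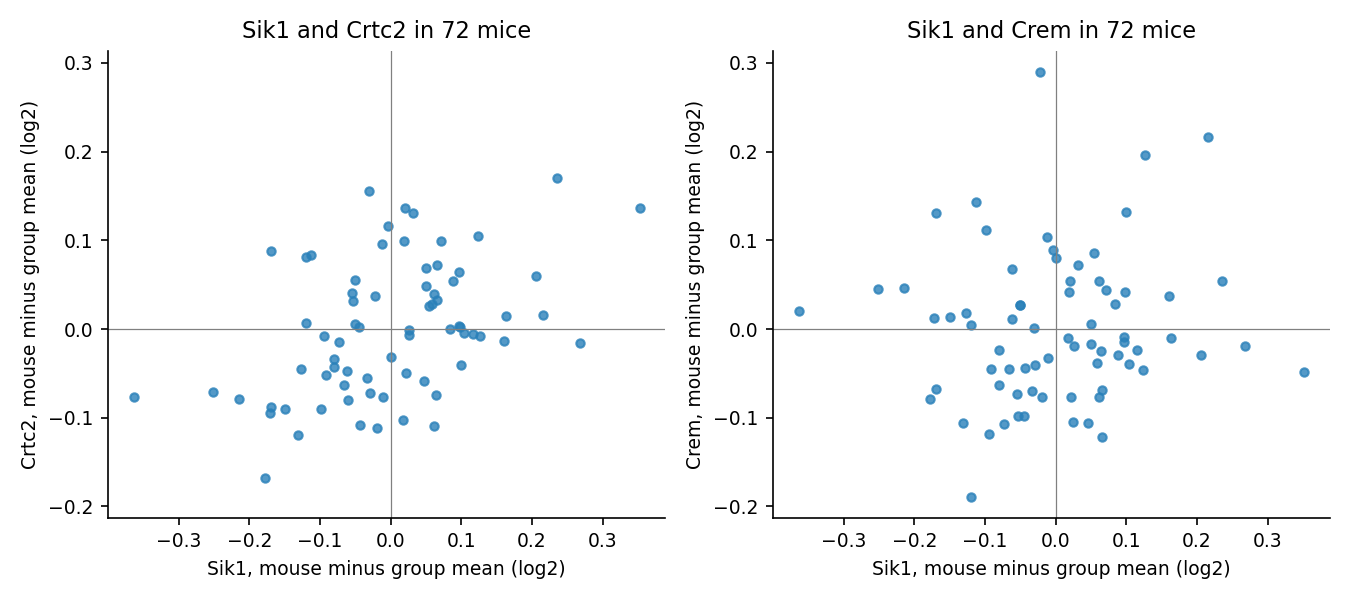
Deviation of each of 72 mice from its group mean (log2) for Sik1 (horizontal axis) and for Crtc2 or Crem (vertical axes), with 1 point for each mouse. The points slope upward for Crtc2 (r 0.44) and show little slope for Crem (r 0.08).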

How the data were processed

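Hippocampal RNA of 72 mice was measured on Affymetrix Mouse Gene 1.1 ST arrays hybridised together. The authors averaged sequential scans and deposited log2 signals, background corrected, quantile normalized and summarised by RMA in Affymetrix Power Tools, for 35556 probe sets. Of these, 21218 have 1 gene symbol in the platform annotation, 1881 several and 12457 none. Depth has no meaning here, and the number of arrays limits the precision.

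Groups were read from each sample's labels. Variation along PC1, the leading component over all arrays (probe sets centred on their means) was subtracted. The study's methods also normalize against the first component, but their scaling before it is not given in full. The study reports a larger share of the variance for its first component than the 17.4% here, so it may not be the component subtracted. Each comparison was fitted to its 18 arrays, and each interaction to its 4 groups, with limma 3.58.1 in R 4.3.3, two-sided. Correlations used 100000 permutations of mice within groups (numpy 2.4.6), adjusted over 8 genes and called under 0.05. The fits were checked on simulated arrays.

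The genes and lists were chosen with earlier results of these data known. Named besides the 10 genes were up to 4 called genes of each list, by size, and the 8 genes most like Sik1. No genome build is named for the arrays. Promoters are from RefSeq.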

Additional observations from a re-analysis of the deposited data

Results flagged for a closer look

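The Sik1 change at FC30 differed from that at FC4 by 0.48 and from that at FC12 by 0.55, each by a limma interaction test (adjusted p = 0.0502 and 5.42e-04).

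Of 72 combinations of gene and group, 3 had a mouse far from the other 8 of its group by Dixon's test, where chance flags about 1 in 20. Crtc3 in FC4 replicate 6 was the lowest at 7.64, against 7.82 in the nearest mouse. Ep300 in CC4 replicate 4 was the lowest at 9.59, against 9.64 in the nearest, and Ep300 in FC4 replicate 3 was the highest at 9.76, against 9.70. None of these 3 arrays stood apart on the first or second component.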

How the results depend on the processing

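Each comparison was repeated under 13 other settings and each interaction under 6. Sik1 was called in all 13 for FC30 and RT30 against CC30 and against FC24, and in all 6 for both interactions, with differences from 0.52 to 0.59 for FC30 and 0.49 to 0.53 for RT30. Adjusted p reached 0.00284 for FC30 and 0.00234 for RT30 against CC30, and 0.0488 and 9.24e-04 against FC24. The FC30 change minus the FC4 change had an adjusted p between 0.00537 and 0.0653. Creb1 and Ep300 were called in all 13 for CC12 against CC4 (adjusted p up to 0.0957 and 0.0842).

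In CC12 against CC30 the number of genes called was 2, Crebbp and Ep300, with all 8 groups in 1 fit, with the methods' t-test after Benjamini-Hochberg adjustment, and with an intensity trend and robust estimation. In CC12 against CC4 it was 4, with Sik1 and Crebbp added, with the first 2 components removed and without dim probe sets. Sik1 passed there in 5 of 13 settings (adjusted p from 0.027 to 0.324) and Crebbp in 6 of 13. The cause was not tested.

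Signs turned for Sik1 in FC24 against CC30, to 0.00111 with no component removed, 4.04e-04 with 2 removed, 0.0216 with the component as a covariate, 0.00467 without the arrays that stood apart and 0.00702 with the component then found again. That last setting also turned FC12 against CC12 to 0.00615. Removing 2 components turned the correlation of Sik1 with Crem to -0.0749. It left Crtc2 at 0.39 (permutation adjusted p = 0.0174), while the other 5 correlations that had passed did not, at the 0.05 threshold of the correlations (permutation adjusted p from 0.0618 to 0.22). Without a component removed, Creb1 did not pass (permutation adjusted p = 0.0624). Of 1175 values of genes never called, 45 changed sign, none of them over 0.0203 in size before.

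The labels do not say whether replicate numbers pair the samples, and the values did not settle it. In no comparison did the deviations of all 9 same-numbered pairs correlate over 0.1. The correlations ran from -0.24 to 0.47, and most pairs over 0.1, 5 of 9, were in FC4 against CC4 and in RT30 against FC24. Of 45 arrays 10 correlated best with a control of their own number, where chance gives 1 in 9. With a replicate block, FC30 against CC30 called 43 probe sets in place of 91 and RT30 against CC30 47 in place of 99. The count among the 9 genes was the same in every comparison, 1 in both of these. Over the settings, CC12 against CC30 called 394 to 1543 probe sets and CC12 against CC4 1162 to 2862. The mean of several probe sets for a gene was not run because each gene had 1.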
